A study of Mus musculus with 20 samples.

Results

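Fetal mouse hearts exposed to TCDD at 3 µg/kg were compared with hearts of vehicle controls. The comparison took in 12 of the 20 arrays of a dose series, 4 labelled 3 µg/kg and 8 labelled as corn oil controls, which were chosen by their dose label. Pregnant mice had received TCDD (2,3,7,8-tetrachlorodibenzo-p-dioxin) or the corn oil vehicle by oral gavage on gestation day 14.5, and whole hearts were taken on day 17.5. The other 8 arrays, 4 at 1.5 µg/kg and 4 at 6 µg/kg, were used for the estimate of spread and for the comparison between doses. The labels used here name no strain, no sex and no litter, and they do not say whether an array held 1 heart or a pool. Every p-value therefore measures only the spread between these arrays, which may be technical. The RNA was of the whole organ, so fewer cells of a type and less RNA per cell cannot be told apart.

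TCDD binds and activates the aryl hydrocarbon receptor (AhR), a transcription factor held in the cytoplasm by heat shock protein 90 and partner proteins until a ligand binds. The bound receptor moves to the nucleus, pairs with Arnt and binds DNA at dioxin response elements, whose core is GCGTG. Its textbook targets are Cyp1a1, Cyp1a2 and Cyp1b1, enzymes that oxidise polycyclic compounds, and Ahrr and Tiparp, which restrain the receptor. Dioxin given to a mother crosses the placenta, and the developing heart is a known target of it in fish, birds and mice.

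Of 12422 probe sets (the groups of short probes that measure a transcript), 8097 passed a filter on low signal, and they stand for 6099 genes. The values are MAS5 signals, the array maker's estimate of brightness on a linear scale, and differences are given as log2(signal + 32), which understates the change of dim genes. The array medians lay between 171 and 201 in these 12 arrays, and the lowest correlation between any pair of them was 0.953. With so few arrays the median 95% interval of a difference reached 0.29 to either side, which sets the precision. The ratio of the 3′ to the middle β-actin probe set, a sign of RNA quality, was 0.39 to 0.52 (log2) at 3 µg/kg. In controls it was 0.37 to 1.33, with controls 1, 2 and 6 at 1.18, 1.33 and 0.89. The ratio of the 3′ to the 5′ β-actin probe set did not set these controls apart, at 0.25, 0.40 and 0.31. That ratio was highest in controls 7 and 8, at 0.59 and 0.70. Below, the β-actin ratio means the one to the middle probe set. Controls 1 to 4 and controls 5 to 8 differed from each other in 23 probe sets at an adjusted p under 0.05, so results are also given against each set. The tissue label was met by the heart muscle genes: 25 of the 25 sarcomere genes on the array passed the filter, among them Myh6 with a control median of 15668 and Myh7 with 25955.

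At 3 µg/kg, 2 of 8097 probe sets (0.0247%) passed an adjusted p of 0.05, and both were higher than in controls. They were those of Cyp1a1 and Cyp1b1. No probe set was lower (0.0%), and the third smallest adjusted p was 0.144. At an unadjusted p under 0.05 there were 463 probe sets (5.72%), 272 higher (3.36%) and 191 lower (2.36%), where 405 are expected if nothing differs. The mean was above that of controls at 51.2% of probe sets and below it at 48.8%. By gene, 51.4% of the 6099 were higher and 48.6% lower. At an unadjusted p under 0.05, 3.53% of the genes were higher and 2.39% lower, which are the shares to set beside the gene lists below. Only 15 probe sets differed by more than 1 on the log2 scale. The 4 exposed arrays lay above all 8 controls at 26 probe sets (0.321%) and below all 8 at 18 (0.222%).

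**Figure D1:**
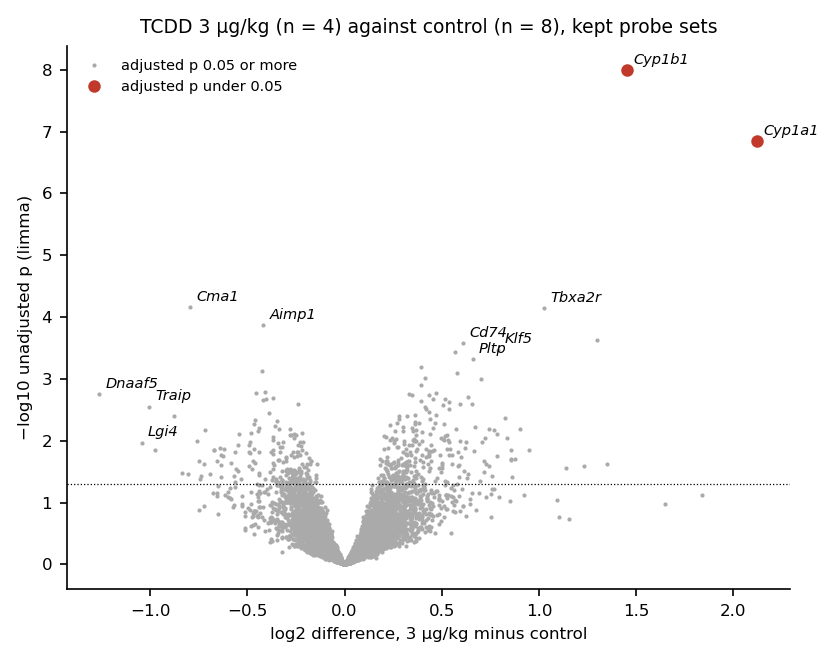
Each point is 1 of the 8097 probe sets, with the log2 difference between 3 µg/kg (n = 4) and control (n = 8) on the horizontal axis and −log10 of the unadjusted p on the vertical axis (limma, fitted across all probe sets, not an exact test); the dotted line marks the 0.05 level. Cyp1a1 at 2.12 and Cyp1b1 at 1.45 (red) stand above all others, and Tbxa2r and Cma1 lead the probe sets that did not pass after adjustment.

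Cyp1a1 oxidises aromatic hydrocarbons and is the standard readout of AhR activity. Its signal was 269.9, 404.2, 217.7 and 208.3 in the 4 arrays at 3 µg/kg, and in controls it ran from 15.4 through a median of 32.4 to 70.6. The lowest exposed array was far above the highest control. Cyp1a1 rose by 2.12 on the log2 scale (SE 0.28, 95% interval 1.54 to 2.71, adjusted p = 0.000573), from a mean of 39.6 ± 23.0 (SD, n = 8) to 275 ± 90.3 (SD, n = 4). A second probe set annotated to Cyp1a1 had mean signals of 94.5 in controls and 64.2 at 3 µg/kg (difference -0.44, adjusted p = 0.907). Cyp1b1, a P450 that acts on steroids as well as on aromatic hydrocarbons and is found mainly outside the liver, had signals of 226.5, 377.0, 259.1 and 231.7 at 3 µg/kg. Its controls ran from 45.9 through 82.2 to 112.2, again with no overlap. Cyp1b1 rose by 1.45 (SE 0.17, 95% interval 1.11 to 1.80, adjusted p = 8.24e-05), from 79.1 ± 19.4 (SD, n = 8) to 274 ± 70.4 (SD, n = 4). Array 2 of the exposed group was the highest for both genes.

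Both calls held against controls 1 to 4 alone, where Cyp1a1 was at 2.10 (adjusted p = 0.0273) and Cyp1b1 at 1.58 (adjusted p = 0.000906), and against controls 5 to 8 alone, where they were at 2.15 (adjusted p = 0.00178) and 1.33 (adjusted p = 0.00162). The size for Cyp1a1 depends on the constant added before the logarithm, since its control signal is low: it was 2.93 with 1 and 1.41 with 100.

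Cyp1a1 lies on chromosome 9 and Cyp1b1 on chromosome 17. Their promoters are shown because these were the 2 genes that passed, and because AhR is known to act on them through GCGTG cores. The RefSeq sequences (assembly GRCm38.p6) run from 250 bases before the annotated start to 50 bases after it, at chr9:57697363-57697662 on the plus strand and chr17:79715012-79715311 on the minus strand. Each is written 5′ to 3′ on the gene's strand, and capitals mark the core GCGTG or its reverse complement CACGC.
Cyp1a1: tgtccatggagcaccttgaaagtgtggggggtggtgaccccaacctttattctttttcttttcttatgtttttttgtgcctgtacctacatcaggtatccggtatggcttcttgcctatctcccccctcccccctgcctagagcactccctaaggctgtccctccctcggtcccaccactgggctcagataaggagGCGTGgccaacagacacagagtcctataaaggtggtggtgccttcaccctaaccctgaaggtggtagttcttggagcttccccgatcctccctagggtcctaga
Cyp1b1: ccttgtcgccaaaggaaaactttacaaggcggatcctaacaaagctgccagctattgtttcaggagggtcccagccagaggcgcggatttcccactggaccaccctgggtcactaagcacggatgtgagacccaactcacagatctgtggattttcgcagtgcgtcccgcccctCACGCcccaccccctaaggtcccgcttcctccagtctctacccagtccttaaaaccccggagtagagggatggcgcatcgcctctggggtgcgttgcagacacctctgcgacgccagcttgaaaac
Each window held 1 core, at position -54 from the start in Cyp1a1 and at position -76 on the opposite strand in Cyp1b1. Of 32851 mouse promoters of the same length, 10639 (32.4%) hold at least 1 such core on either strand. The windows are short, and response elements farther upstream lie outside them.

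Other AhR targets did not pass. Ahrr, the AhR repressor, and Cyp1a2, the P450 that is mainly hepatic, were below the signal filter and were each tested by a two-sided exact permutation test over 495 splits. Ahrr had signals of 105.0, 75.2, 70.4 and 58.9 at 3 µg/kg and of 19.3 to 82.1 in controls, so that 1 exposed array lay above the control range (difference 0.33, exact p = 0.119, adjusted over the 2 genes 0.238). Its promoter window holds 3 cores, while that of Tiparp holds 1 and those of Cyp1a2 and Nqo1 hold 0. Cyp1a2 had a mean of 43.9 ± 19.4 (SD, n = 4) against 43.1 ± 24.1 (SD, n = 8), with an exact p of 0.893.

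Tiparp, a poly-ADP-ribosyltransferase that AhR induces, had signals of 310.5, 399.8, 164.7 and 160.9 at 3 µg/kg against controls of 148.0, 205 and 260.4 (lowest, median, highest). The exposed arrays were split, 2 above all controls and 2 within their range, and the difference was 0.25 (95% interval -0.23 to 0.73). Nqo1, a quinone reductase, was at 0.21 (-0.16 to 0.59) and Aldh3a1, an aldehyde dehydrogenase of the battery, at -0.42 (-0.95 to 0.11). Of 12 battery genes, 10 were on the array and 5 passed the filter, of which 4 were higher and 1 lower, with a median difference of 0.25 against 0.0048 over all 6099 genes. That median was 0.14 without exposed array 1, 0.41 without array 3 and 0.42 without array 4. The choice of genes and probe sets was not blind to exposure, since Cyp1a1 and Cyp1b1 reached the filter only with the help of exposed arrays. When probe sets were picked by their control signal instead, the battery median was 0.17. By that rule Cyp1a1 is read from its second probe set, at -0.44, which had the higher control mean (94.5 against 39.6). With no filter the battery median was 0.21.

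The receptor itself, Ahr, had signals of 73.8, 164.9, 88.4 and 97.2 against controls of 47.4, 84.1 and 124.3 (difference 0.21, 95% interval -0.25 to 0.67). Its partner Arnt was at -0.07 (-0.35 to 0.21). The 5 measured genes of the receptor list, which counts the transcription factor Sp1 (0.21), lay between -0.07 and 0.21. Among 17 genes of the Nrf2 and glutathione response, which guards against oxidants, 14 were higher and 3 lower. At an unadjusted p under 0.05, 2 were higher. Over all genes 51.4% were higher, 3.53% of all genes at that threshold. The median of these 17 genes, 0.09, was 0.06 without exposed array 2 or control 4, 0.04 without control 7 and 0.03 without exposed array 4. Hmox1, haem oxygenase, led them with 720.4, 755.6, 686.4 and 824.0 against controls of 443.6, 595 and 686.2. All 4 exposed arrays were above all controls, the third by a margin of less than 1 unit, and the difference of 0.35 (SE 0.13) had an adjusted p of 0.717.

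**Figure D2:**
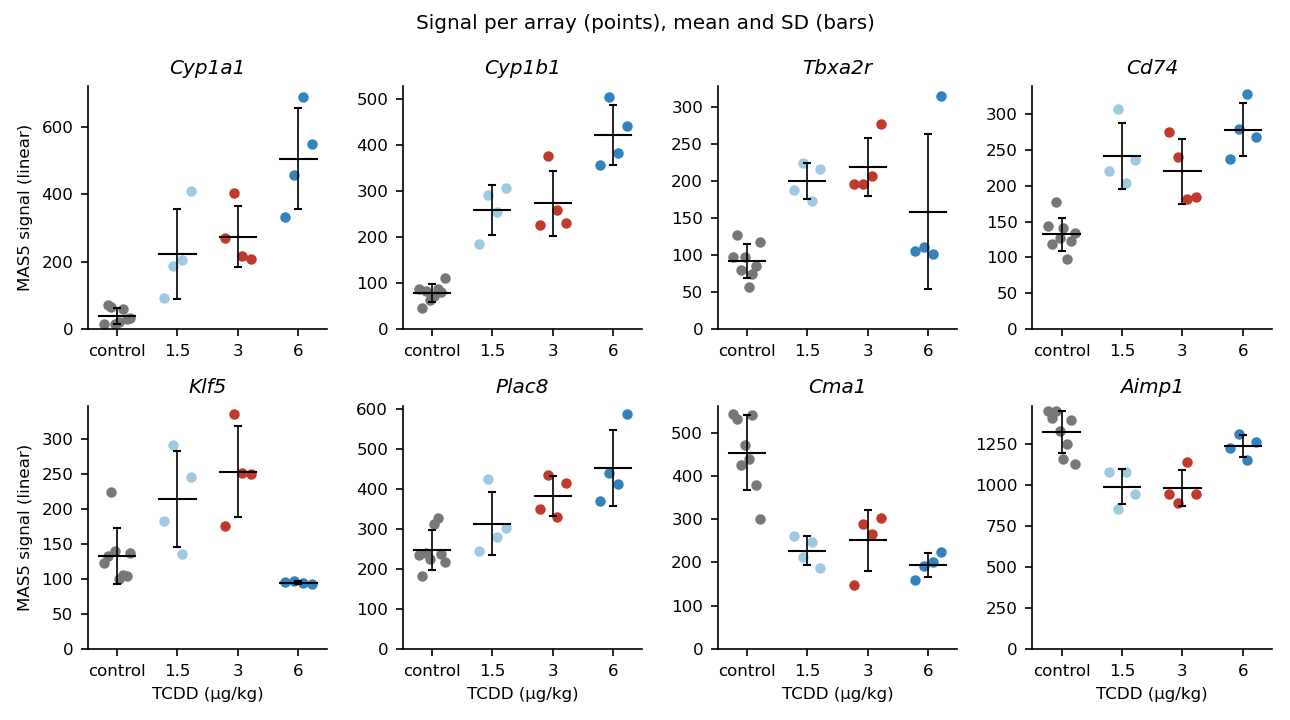
MAS5 signal of 8 genes in each array (points) of the control group (n = 8) and of 1.5, 3 and 6 µg/kg TCDD (n = 4 each), with the mean and SD as bars. At 3 µg/kg Cyp1a1, Cyp1b1, Tbxa2r, Cd74 and Plac8 lie wholly above the controls, and 3 of 4 arrays lie below them for Cma1 and Aimp1.

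Beyond the P450s, Tbxa2r had the smallest p among the higher genes. It encodes the thromboxane A2 receptor, which constricts vessels and activates platelets. Its signals were 195.6, 195.7, 206.9 and 277.1 at 3 µg/kg against controls of 57.4, 90.7 and 126.7, with no overlap. The difference of 1.03 (SE 0.21, 95% interval 0.59 to 1.47) had an adjusted p of 0.144, and it was 0.92 with the first 4 controls and 1.13 with the last 4. When controls 1, 2 and 6 and array 4 of 6 µg/kg, those of high β-actin ratio, were left out, it was 1.08 with an adjusted p of 0.00628. Leaving out array 4 of 6 µg/kg alone gave an adjusted p of 0.00305 with the difference unchanged at 1.03. That array enters this comparison only through the estimate of spread. Most settings gave no such call: the adjusted p was under 0.05 in 3 of 17 alternatives and without 1 of 20 arrays. With the first 4 controls it was 0.527 and with the last 4 it was 0.0599. Of the 9 measured genes of eicosanoid synthesis and response, 7 were higher and 2 lower (median 0.11, and up to 0.18 without 1 array). Over all genes 51.4% were higher. At an unadjusted p under 0.05, 2 of the 9 were higher, against 3.53% of all genes. Ptgis, the prostacyclin synthase, was at 0.33.

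Klf5, a zinc finger factor of vascular remodelling, had signals of 176.0, 334.6, 251.1 and 249.8 against controls of 99.5, 128 and 223.2. The first exposed array fell within the control range. Its difference was 0.79 (adjusted p = 0.326). Against controls 1 to 4 alone it was 0.61 (adjusted p = 0.695), and against controls 5 to 8 alone it was 0.97 (adjusted p = 0.0408). Pltp, a phospholipid carrier in plasma, was at 0.66 (adjusted p = 0.384) with 3 of 4 arrays above all controls. Marveld1, a protein with a MARVEL domain, had 4 of 4 arrays above all controls with a difference of 0.41 (adjusted p = 0.533). Ank3, which anchors sodium channels to the membrane skeleton, was at 0.70 (adjusted p = 0.533) on 1 probe set and at 0.08 on another. It was at 0.35 with the first 4 controls (adjusted p = 0.741) and at 1.06 with the last 4 (adjusted p = 0.00178). Ebf2, a transcription factor of the early B cell factor family, was at 0.47 (adjusted p = 0.601).

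Markers of macrophages and other leukocytes were higher as a group by a small amount. Of 20 such genes, all on the array, 15 passed the filter, and 14 of these were higher and 1 lower, where 51.4% of all genes tested were higher. At an unadjusted p under 0.05 there were 5 higher and 0 lower, where 5.92% of all genes passed that threshold, 3.53% higher and 2.39% lower. None of the markers passed after adjustment, and their median was 0.23. Their summed signal was 5663 to 6189 in the exposed arrays and 4608 to 5324 in controls, with no overlap. The defining markers Fcer1g, Ptprc, Aif1, Itgam and Itgb2 were below the filter. C1qa, a chain of the complement starter C1q made by tissue macrophages, had signals of 658.9, 789.3, 680.1 and 556.4 against controls of 402.5, 500 and 563.3. All but the last exposed array were above the controls, and the difference was 0.39 (SE 0.11, adjusted p = 0.601). Tyrobp, a signalling adaptor of myeloid cells, had 236.7, 266.0, 244.5 and 264.9 against 151.5, 185 and 220.7, with no overlap and a difference of 0.38 (adjusted p = 0.707). C1qc was at 0.36 and Lyz2, lysozyme, at 0.36.

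Of 7 antigen presentation genes of MHC class II on the array, 3 passed the filter. Cd74, the invariant chain that guides MHC class II molecules, had signals of 274.6, 240.4, 181.8 and 184.3 against controls of 97.4, 130 and 176.8. All exposed arrays were above all controls, 2 of them narrowly, and the difference of 0.61 (SE 0.14, 95% interval 0.32 to 0.90) had an adjusted p of 0.301. H2-Eb1, a class II chain, was at 0.88 (adjusted p = 0.779) with 1 of 4 arrays above all controls. H2-DMa, which loads peptide on class II, was at -0.14. H2-Aa, H2-Ab1, H2-DMb1 and Ciita were below the filter. Of 11 genes of the interferon response 9 were higher and 2 lower (median 0.15, and 0.08 without control 8), where 51.4% of all genes were higher. H2-D1, a class I chain, was at 0.24 on 1 probe set and 0.00 on another.

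Of 8 neutrophil markers 6 were higher and 2 lower (median 0.23). At an unadjusted p under 0.05, 3 were higher, against 3.53% of all genes. The list's median was 0.37 with the first 4 controls and 0.09 with the last 4. It was 0.12 without exposed array 4, whose mean log2 signal over the list was 0.46 above the control mean, where the other 3 stood at 0.15 to 0.22. It was 0.14 without control 1 and 0.09 with the arrays high in β-actin ratio left out. Plac8, a small protein of myeloid cells, had 349.4, 434.0, 330.8 and 415.5 against controls of 182.5, 236 and 327.9. Every exposed array was above every control (difference 0.58, SE 0.15, adjusted p = 0.502). S100a9 and S100a8, the subunits of calprotectin, were at 0.63 (adjusted p = 0.707) and 0.44 (adjusted p = 0.728).

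Cma1, the chymase stored in mast cell granules that can make angiotensin II, had the smallest p among the lower genes. Its signals were 148.3, 288.1, 265.4 and 303.4 at 3 µg/kg, and its controls ran from 299.5 through 455 to 542.0. The fourth exposed array lay just above the lowest control and the other 3 lay below it. The difference of -0.80 (SE 0.16, 95% interval -1.13 to -0.46) had an adjusted p of 0.144. It was -0.92 with controls 1 to 4 (adjusted p = 0.0787) and -0.67 with controls 5 to 8 (adjusted p = 0.167). The adjusted p was 0.0305 without control 8 and reached 0.425 over the arrays left out. It was under 0.05 in 1 of 18 alternatives and without 1 of 20 arrays. The 4 other mast cell markers that passed the filter did not share its size: Cpa3, a granule carboxypeptidase, was at -0.27, Kit, the stem cell factor receptor, at -0.03, Hdc, the histamine-forming enzyme, at -0.02 and Tpsb2, a tryptase, at 0.01. Mcpt4, Fcer1a, Ms4a2 and Mcpt2 were below the filter.

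The other genes with the smallest p among the lower ones had no common role. Aimp1, a scaffold of the tRNA synthetase complex, had signals of 943.7, 888.3, 1137.1 and 944.6 against controls of 1128.1, 1358 and 1449.3. Only the third exposed array reached into the control range, and the difference was -0.42 (SE 0.09, 95% interval -0.61 to -0.23, adjusted p = 0.222). St13, an Hsp70 cochaperone, had 4 of 4 arrays below all controls, and its 2 probe sets gave -0.24 and -0.24 (adjusted p = 0.601 for the first). Lima1, an actin crosslinker, was at -0.41 and Lpcat3, a phospholipid acyltransferase, at -0.42, each with 3 of 4 arrays below all controls and an adjusted p of 0.601.

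For several of the lower genes another probe set gave a smaller difference or none. Dnaaf5, a dynein assembly factor, was at -1.26 on a dim probe set and at -0.03 on another. Traip, a ubiquitin ligase, was at -1.01 and -0.30, with exposed signals of 60.6, 38.3, 60.9 and 254.4. Caml was at -0.88 and 0.02, Abhd8 at -0.45 and -0.04, and Col18a1, the collagen that releases endostatin, at -0.39 against 0.11, -0.03 and 0.02 on 3 others. None of these had an adjusted p under 0.601.

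Genes of the structural matrix leaned upward. Of 45 measured, 35 were higher and 10 lower, with 10 higher and 0 lower at an unadjusted p under 0.05. Over all genes 51.4% were higher, 3.53% of all genes at that threshold. The list median of 0.11 was 0.06 without exposed array 2. Bgn, the proteoglycan biglycan, had signals of 5407, 6819, 6951 and 7077 against controls of 4258, 4795 and 6340. The first exposed array lay within the control range and the other 3 above it. The difference was 0.39 (SE 0.10, 95% interval 0.19 to 0.60, adjusted p = 0.479) on the brighter probe set and 0.15 on another. Hspg2, the basement membrane proteoglycan perlecan, was at 0.51 (adjusted p = 0.707) with 3 of 4 arrays above all controls. Tnxb, tenascin X, was at 0.67 on average but at 0.27 with the first 4 controls and 1.08 with the last 4. Mfap4, a fibre-associated glycoprotein, was at 0.54, Eln, elastin, at 0.37 and Col6a2 at 0.36. Of 15 fibroblast markers 13 were higher and 2 lower, with Dlk1 at 0.27 and Col1a1 at 0.10. Their median was 0.10, and it was 0.04 without exposed array 2. Proteases and their inhibitors did not lean the same way (4 higher and 7 lower of 11, median -0.05).

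Epicardial and retinoid genes leaned upward, mainly in exposed arrays 2 to 4. The epicardium is the mesothelium that covers the heart, and it makes retinoic acid, a signal for the growth of the muscle wall. Of 10 epicardial and mesothelial markers 9 were higher and 1 lower (median 0.21, and 0.32 without exposed array 1). At an unadjusted p under 0.05, 4 were higher, against 3.53% of all genes. Krt19, a keratin of the mesothelium, had 385.1, 1119.5, 958.7 and 828.7 against controls of 330.0, 531 and 788.3. Array 1 was among the controls and arrays 2 to 4 were above them all (difference 0.49, adjusted p = 0.829). Msln, mesothelin, had the same order with 265.0, 508.5, 403.2 and 343.1 against 254.5, 280 and 326.5 (difference 0.32, adjusted p = 0.803). Tcf21, a factor of epicardial and fibroblast precursors, was above all controls in all 4 arrays, at 1022.0, 999.5, 894.9 and 986.5 against 787.9, 854 and 873.9 (difference 0.20, SE 0.08, adjusted p = 0.728).

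Of 13 retinoid genes on the array 6 passed the filter. These 6 were higher, 1 of them at an unadjusted p under 0.05, with a median of 0.38. The median of all 13 with no filter was 0.13, and that of the 6 was 0.24 with the arrays high in β-actin ratio left out. Aldh1a1 and Aldh1a2, which make retinoic acid, were at 0.70 and 0.56, the receptor genes Rara, Rxra and Rxrb at 0.35, 0.41 and 0.35, and the retinol carrier Rbp4 at 0.26. Aldh1a1 had 227.6, 1050.4, 758.7 and 593.0 against controls of 201.0, 318 and 631.0, so that array 1 was again low. The Rxra value was -0.04 on a second probe set. Without exposed array 1 the Aldh1a1 difference was 1.11 and that of Krt19 0.81.

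Lung epithelial transcripts, as a list, were likewise higher in exposed arrays 2 to 4 than in array 1. The 4 that passed the filter (Scgb1a1, Sftpb, Sftpc and Cyp2f2) were at 1.35, 1.23, 1.16 and 0.62, with a median of 1.20 that became 1.87 without exposed array 1 and 0.62 with no filter. Scgb1a1, the club cell secretoglobin, had 104.9, 707.9, 497.6 and 579.3 against controls of 18.8, 156 and 301.2. Array 1 was within the controls and the other 3 were above them. In controls the lists did not always move together, by mean log2 signal set against the control mean. Control 6 was at 0.93 for lung, -0.39 for retinoid and -0.31 for epicardial genes, and control 7 at -0.64, 0.29 and 0.12. In each of the other controls these lists had the same sign. The reason was not tested. The summed signal of the 4 lung genes ranged from 322 to 3005 in controls and from 407 to 4952 in exposed arrays. With the mean level of these 4 genes as a covariate, Aldh1a1 was at 0.21, Krt19 at 0.29, Msln at 0.24, Aldh1a2 at 0.57 and Tcf21 at 0.21, while Cyp1a1 was at 1.91 (adjusted p = 0.00709) and Cyp1b1 at 1.32 (adjusted p = 0.000951).

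**Figure D3:**
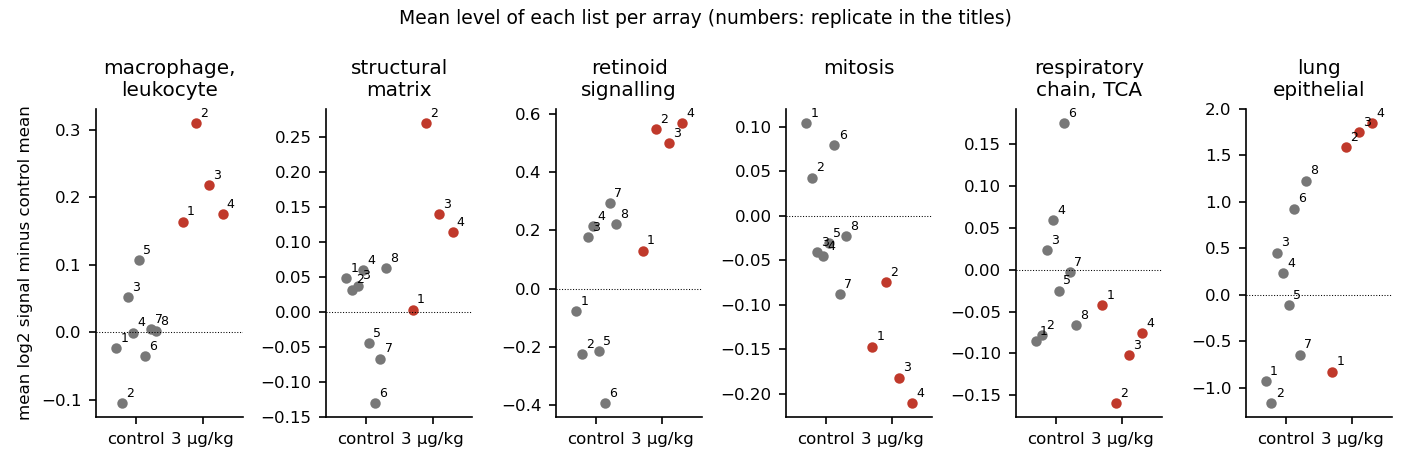
Mean log2 signal of the measured genes of 6 lists in each array, minus the control mean, for control (grey, n = 8) and 3 µg/kg (red, n = 4), with the replicate number of the titles beside each point. For retinoid signalling and lung epithelial markers exposed array 1 lies among the controls and arrays 2 to 4 lie above them; for the macrophage and leukocyte list all 4 lie above.

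Genes of cell division leaned downward. Of 32 measured genes of mitosis, 3 were higher and 29 lower, with 0 higher and 5 lower at an unadjusted p under 0.05 and a median of -0.17, where 48.6% of all genes were lower. None passed after adjustment. Smc4, a condensin subunit that compacts chromosomes, had 2292, 2343, 2338 and 1856 against controls of 2273, 2801 and 3673. The first 3 exposed arrays lay just above the lowest control and the fourth lay below it, and the difference was -0.37 (SE 0.11, 95% interval -0.58 to -0.15, adjusted p = 0.601). Kif2c, a kinesin that corrects spindle attachments, was at -0.34, Ttk, a spindle checkpoint kinase, at -0.34, Mki67, the marker of cycling cells, at -0.29 and Cdk1, the mitotic kinase, at -0.27. Ube2c, a ubiquitin conjugase of mitotic exit, went the other way at 0.39. The median stayed below 0 without each of the 12 arrays in turn, and it was -0.18 with the first 4 controls and -0.17 with the last 4. Among controls the β-actin ratio moved with this list. The mean log2 signal of its genes, set against the control mean, was highest in controls 1, 6 and 2, at 0.10, 0.08 and 0.04. It was below 0 in the other 5 controls. Array 4 of 6 µg/kg, whose ratio was also high (1.02), was at -0.12. The arrays at 3 µg/kg were at -0.15, -0.07, -0.18 and -0.21. When the 4 arrays of high ratio were left out, the median was -0.11, Smc4 was at -0.35 and Kif2c at -0.24. Whether RNA quality has a part in the difference of this list was not tested.

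Other stages of the cycle showed less. Of 21 DNA replication genes 7 were higher and 14 lower (median -0.05), and the median was -0.11 with the first 4 controls and 0.05 with the last 4. It was 0.00 without exposed array 2 and 0.01 with the arrays high in β-actin ratio left out. Prim1, the primase that starts new strands, was at -0.54 (adjusted p = 0.707) and Rrm1, the large subunit of ribonucleotide reductase, at -0.32. Of 14 G1 cyclins and CDK inhibitors 3 were higher and 11 lower, with none at an unadjusted p under 0.05. Over all genes 48.6% were lower.

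Genes of energy metabolism were lower by small amounts. Of 58 genes of the respiratory chain and TCA cycle 4 were higher and 54 lower, with a median of -0.10. At an unadjusted p under 0.05, 0 were higher and 6 lower. Over all genes 48.6% were lower, 2.39% of all genes at that threshold. The groups overlapped in the mean log2 signal of the list, set against the control mean. It was -0.16 to -0.04 at 3 µg/kg and -0.09 to 0.18 in controls. Atp5a1, the catalytic-core subunit α of ATP synthase, had 11916, 11930, 12595 and 12759 against controls of 12876, 13599 and 14402. All exposed arrays were below all controls, but the difference was only -0.14 (SE 0.06, adjusted p = 0.779). Ndufs1 of complex I was at -0.19 and Fh1, fumarase, at -0.19. Of 24 genes of fatty acid uptake and oxidation 6 were higher and 18 lower (median -0.10), with the fatty acid binding protein Fabp3 at -0.30 and the matrix enzyme Decr1 at -0.28. Of 18 glycolytic genes 4 were higher and 14 lower (median -0.08).

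The heart muscle genes showed a like lean. Of 25 sarcomere and muscle enzyme genes 5 were higher and 20 lower (median -0.09), where 48.6% of all genes were lower. At an unadjusted p under 0.05, 2 were lower, against 2.39% of all genes. Myh6, the adult α-myosin heavy chain, had 13339, 13918, 12740 and 13057 against controls of 13853, 15668 and 17127. The second exposed array was just within the controls and the other 3 were below them (difference -0.22, 95% interval -0.39 to -0.05, adjusted p = 0.728). Myh7, the fetal β-myosin heavy chain, was at -0.09 (-0.27 to 0.09). The natriuretic peptides, which mark a strained heart, were near 0: Nppa at 0.00 (-0.19 to 0.20) and Nppb at -0.11 (-0.38 to 0.15). A change of Nppa by more than 0.20 in either direction lay outside its interval.

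Bright genes were lower as a class, which counts the bright genes of the energy and heart muscle lists, such as Atp5a1 and Myh6. Of the 305 brightest genes (top 5%) 68.9% were lower, with a median of -0.05. Under quantile normalization, which gives all arrays 1 distribution of signal, that median was -0.0012, the sarcomere median -0.01, that of the respiratory chain -0.06, and Myh7 turned to 0.03. Under the same normalization the median of fatty acid uptake and oxidation was -0.08, that of glycolysis -0.04, and Myh6 was at -0.16. The mitosis median was -0.18 there. The 18 ribosomal protein genes had a median of -0.05 that became 0.0020 under quantile normalization. The part of brightness in the lower values of the energy and muscle lists was not tested.

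**Figure D4:**
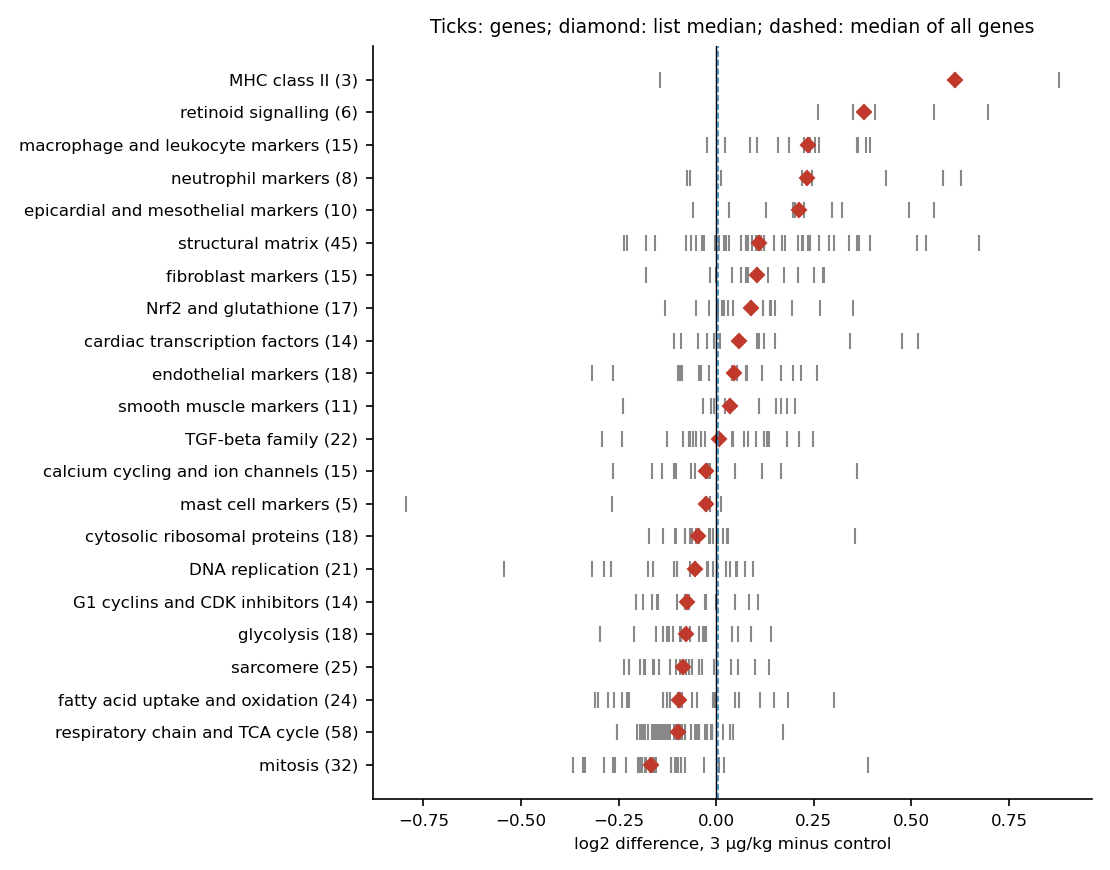
Each tick is the log2 difference of 1 gene between 3 µg/kg (n = 4) and control (n = 8), by gene list, with the number of measured genes in brackets; diamonds are list medians, and the dashed line is the median of all 6099 genes, 0.0048. Mitosis and energy metabolism lie mostly left of 0, and leukocyte, epicardial and retinoid genes mostly right of it.

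Cardiac transcription factors showed no common direction, and genes of ion handling leaned slightly downward. Of 14 transcription factors 8 were higher and 6 lower (median 0.06, and -0.01 without exposed array 1). Tbx2, a repressor of chamber genes in the atrioventricular canal, was at 0.52 (SE 0.18, adjusted p = 0.707) with 3 of 4 arrays above all controls on 1 probe set, and at 0.00 on a dimmer one. Nkx2-5, the early heart factor, was at 0.15 and Gata4 at 0.12. Of 15 genes of calcium cycling and ion channels 4 were higher and 11 lower (median -0.03), where 48.6% of all genes were lower.

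At cell contacts 9 genes were higher and 7 lower of 16. Gja1, the gap junction protein connexin 43, had 7754, 9295, 9581 and 9011 against controls of 9603, 10174 and 12108. All exposed arrays were below all controls, the third narrowly, and its 2 probe sets gave -0.22 (SE 0.08, adjusted p = 0.707) and -0.24. Jup, plakoglobin of the desmosome, was at 0.54 (SE 0.16, adjusted p = 0.643) with 3 of 4 arrays above all controls. Cdh13, T-cadherin, was at -0.65, but at -0.09 with the first 4 controls and -1.22 with the last 4.

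Vessel genes were mixed, with 10 of 18 endothelial markers higher and 8 lower (median 0.05). Eng, endoglin, a TGF-β coreceptor of endothelium, was at -0.26 (adjusted p = 0.728), Flt4, the lymphatic VEGF receptor, at 0.22 and Pecam1 at -0.32. The TGF-β family split evenly, 11 higher and 11 lower of 22. Of 11 genes of the IGF axis 9 were higher and 2 lower (median 0.15), where 51.4% of all genes were higher. Irs2, an adaptor of the insulin and IGF receptors, was at 0.86 on average, at 0.35 with the first 4 controls and at 1.37 with the last 4.

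Transcripts of other tissues and of sex were looked at in the same way. Of 4 liver markers 3 were higher and 1 lower (median 0.16, and -0.05 with the arrays high in β-actin ratio left out), with Alb, albumin, at 0.80 with all controls, at 1.41 with the first 4 controls and at 0.19 with the last 4. Markers of thymus, skeletal muscle, brown fat, nerve and red cells had medians between -0.12 and 0.09. Xist, the transcript of the inactive X chromosome, was 547 to 1195 in the exposed arrays and 4.4, 34.1 and 27.0 in controls 1, 2 and 7, with up to 1601 in the other controls. The Y-linked Eif2s3y was at -0.57 (95% interval -1.28 to 0.14). With Xist as a covariate Cyp1a1 was at 2.05 (adjusted p = 0.00416) and Cyp1b1 at 1.37 (adjusted p = 0.000606).

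The doses below and above 3 µg/kg were compared with it directly. Between 3 and 1.5 µg/kg, limma called 0 of 8097 probe sets (0.0%) and 226 (2.79%) had an unadjusted p under 0.05, 101 of them higher at 3 µg/kg (1.25%) and 125 lower (1.54%). Cyp1a1 was higher at 3 µg/kg by 0.36 (95% interval -0.31 to 1.04) and Cyp1b1 by 0.06 (-0.33 to 0.46), and neither passed. Sh3bgr, a heart and muscle protein, had the smallest p among genes lower at 3 µg/kg (-0.81, SE 0.18, adjusted p = 0.966).

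Between 3 and 6 µg/kg, 3 probe sets passed (0.0371%), and 943 (11.6%) had an unadjusted p under 0.05, 503 higher at 3 µg/kg (6.21%) and 440 lower (5.43%). Ank3 was higher at 3 µg/kg by 1.23 (SE 0.21), Ints9, a subunit of the Integrator complex, by 1.41 (SE 0.25) and Igf2bp1, a fetal RNA-binding protein, by 1.05 (SE 0.18), each with an adjusted p of 0.0282. The count was 0 without any 1 of the 4 arrays at 3 µg/kg or without array 2 or 3 at 6 µg/kg, 1 without array 1 at 6 µg/kg, 5 without control 7 and 6 without array 4 at 6 µg/kg. Leaving out the 4 arrays with a high β-actin ratio gave 66. Klf5 came next at 1.14 (SE 0.22, adjusted p = 0.0512). The difference of 3 minus 6 µg/kg was -0.81 for Cyp1a1 (95% interval -1.48 to -0.14, adjusted p = 0.343) and -0.59 for Cyp1b1 (-0.98 to -0.19, adjusted p = 0.248).

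The 3 doses share the same controls, so their differences from control are set side by side only. At 1.5, 3 and 6 µg/kg Cyp1a1 was at 1.76, 2.12 and 2.93 and Cyp1b1 at 1.39, 1.45 and 2.04. Cma1 was at -0.89, -0.80 and -1.09, Cd74 at 0.73, 0.61 and 0.92 and C1qa at 0.31, 0.39 and 0.44. Tbxa2r was at 0.92, 1.03 and 0.51, where 3 of the 4 arrays at 6 µg/kg lay near the controls. Other genes had a value at 6 µg/kg on the other side of 0: Klf5 at 0.56, 0.79 and -0.35, Ank3 at 0.78, 0.70 and -0.53 and Igf2bp1 at 0.70, 0.54 and -0.51. The list medians at the 3 doses were 0.19, 0.23 and 0.26 for macrophages and leukocytes, -0.08, -0.17 and -0.10 for mitosis, -0.13, -0.10 and 0.03 for the respiratory chain and 0.39, 0.38 and 0.08 for retinoid genes.

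**Figure D5:**
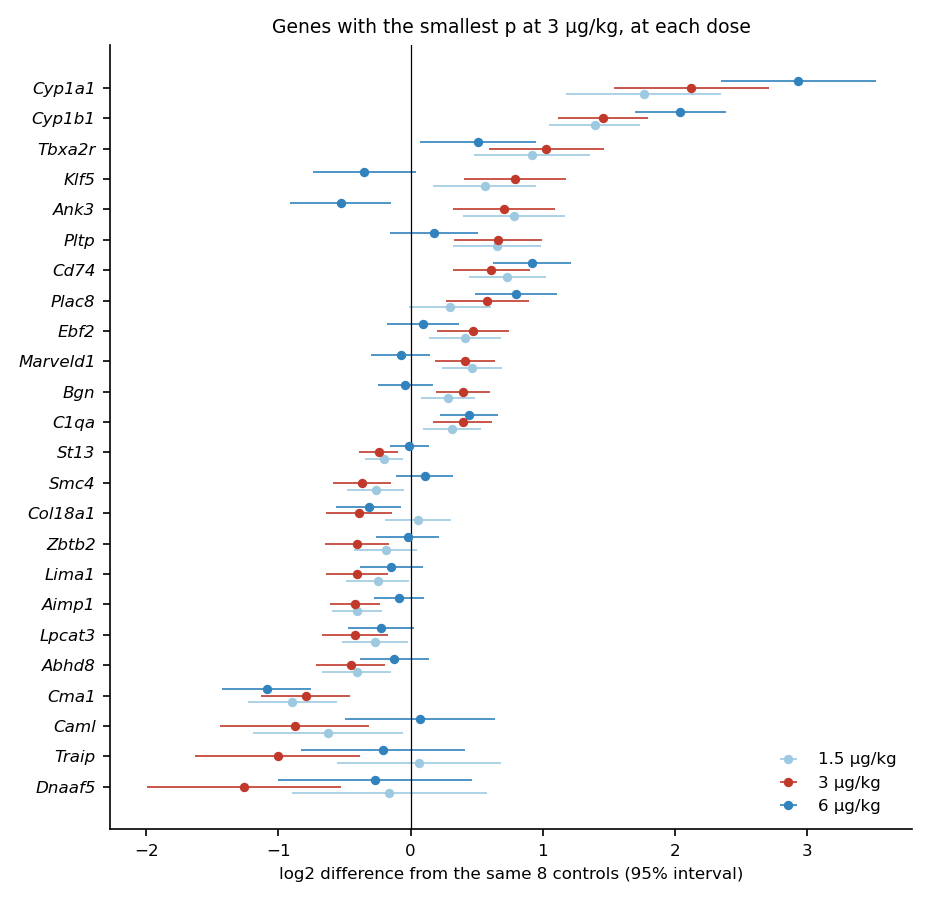
Log2 differences from the same 8 controls, with 95% intervals, at 1.5, 3 and 6 µg/kg (n = 4 each) for the genes with the smallest p at 3 µg/kg in each direction. The intervals of Cyp1a1, Cyp1b1, Cd74 and Cma1 lie on 1 side of 0 at all 3 doses, and those of Ank3 lie above 0 at 1.5 and 3 µg/kg and below 0 at 6 µg/kg.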

How the data were processed

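Total RNA of whole fetal hearts was hybridised to 20 Affymetrix MG-U74Av2 arrays; per the labels, RNA was extracted with Trizol and labelled through Superscript Choice cDNA and ENZO cRNA kits. The authors deposited MAS5 signal, which is an intensity on a linear scale, per the submitters' processing notes; the MAS5 version is not given in the sources used here. All arrays were brought to a common 2% trimmed mean (500), and 32 was added before log2. After removal of 66 control probe sets, a probe set stayed in if its signal reached the 40th percentile of the array in 4 or more of the 20 arrays. Linear models were fitted with limma 3.58.1 in R 4.3.3 (lmFit, contrasts.fit, eBayes with an intensity trend) on all 20 arrays, two-sided, with Benjamini-Hochberg adjustment and a threshold of 0.05; adjusted p in the text are from this fit. Ahrr and Cyp1a2, fixed genes below the filter, had exact permutation tests. The script was tested on simulated data.

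Of 12422 probe sets, 10833 carry 1 gene symbol in the platform annotation, 396 several and 1193 none; only the first were named. Gene lists use the brightest kept probe set of each gene over all arrays. Named genes were, in each direction, those past the threshold filled up to 12 by the smallest p, 14 fixed genes, up to 3 per list by the smallest p and, between doses, the 5 smallest p in each direction; other list members were named as examples after their values were seen. The genes and lists were chosen with earlier results of these data known. The replicate numbers did not pair the arrays. Alternatives were other scalings, constants, filters, variance settings, RNA quality covariates, either set of 4 controls and leaving out arrays; the covariates for Xist and for lung transcripts were added after seeing the data. Figures were drawn with matplotlib 3.10.9.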

Additional observations from a re-analysis of the deposited data

Results flagged for a closer look

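In groups of 4 to 8 arrays, 8 of 168 gene and group pairs held an array far from the rest, where a share of 1 in 20 is expected by chance (8.4). At 3 µg/kg these were array 4 of Tbxa2r (277.1, next 206.9), array 1 of Bgn (5407.1, next 6819.4), array 4 of Smc4 (1855.7, next 2292.0), array 2 of Arnt (223.5, next 329.6), array 1 of Cyp2f2 (122.7, next 426.6) and array 1 of Xist (547.3, next 1059.4). In controls they were array 3 of Klf5 (223.2, next 139.4) and array 1 of Aldh3a1 (34.1, next 106.7). The difference from control was itself different between 3 and 6 µg/kg, by the direct test, for Ank3 (1.23), Ints9 (1.41) and Igf2bp1 (1.05), each with limma's adjusted p of 0.0282.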

How the results depend on the processing

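The calls of Cyp1a1 and Cyp1b1 held under all 18 alternatives and without each of the 20 arrays. The count of 2 at 3 µg/kg became 4 with array weights, 5 with the β-actin ratio as a covariate, 6 when the 4 arrays with a high β-actin ratio were left out, 4 against controls 1 to 4 and 30 against controls 5 to 8. It was 2 to 3 over the arrays left out and 3 with the replicate number as a block. Only controls carry the numbers 5 to 8, so the block gives the same differences from control as controls 1 to 4 alone. These 2 alternatives are therefore not separate checks of a difference. The numbers did not pair the arrays, since same-numbered controls and exposed arrays correlated at -0.00442 to -0.202. Between 3 and 1.5 µg/kg the count of 0 became 1 with the β-actin covariate, was 0 with the replicate block and was 0 without each array. Between 3 and 6 µg/kg the count of 3 became 0 with no filter, 167 with array weights, 22 with the replicate block, 66 with the β-actin covariate, 5 with the GAPDH covariate, 66 without the 4 arrays, 21 with controls 1 to 4 and 39 with controls 5 to 8, and 0 to 6 over the arrays left out. The causes were not tested.

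Of 84 named genes, 76 kept their sign throughout and 8 did not. Xist is counted among the 76, although its use as a covariate removes its own difference by construction. Nppa was -0.0942 with the replicate block and with controls 1 to 4, -0.00498 with the Xist covariate, -0.0226 with the lung covariate and -0.0529 to 0.0306 over the arrays left out. Nppb was 0.0249 with the β-actin covariate and Myh7 0.0300 under quantile normalization. H2-DMa was 0.0156 with the Xist covariate and -0.247 to 0.00127 over the arrays left out. Kit was 0.0170 with the block and with controls 1 to 4, 0.0561 with the GAPDH covariate and -0.0730 to 0.0331 over the arrays left out. Cyp2f2 was -0.0712 with the lung covariate, which is built in part from Cyp2f2 itself. Uty was 0.0420 without the 4 arrays, 0.112 with the Xist covariate and 0.120 with the lung covariate. Arnt was -0.120 to 0.0682 over the arrays left out, Cyp1b1 between 3 and 1.5 µg/kg was -0.0875 to 0.140, and Cyp1a2 was -0.126 against controls 5 to 8. Of 42 lists, 28 kept the sign of their median over 8 alternatives and 12 arrays left out. When the arrays of high β-actin ratio were left out, a setting chosen for the lists after seeing the data, 10 list medians changed sign. The number of arrays and the dim signal of genes such as Ahrr and Cyp1a2 limit what could be detected.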
